A study of Caenorhabditis elegans with 2 samples.

Results

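The nuclear genes that encode the respiratory chain and the mitochondrial ribosome were examined for chromatin bound by MXL-1 in the nematode Caenorhabditis elegans. Members were taken by symbol from the nuclear protein-coding genes of WBcel235 (the assembly that the name ce11 denotes): symbols beginning nuo-, nduf-, cox-, sdha-, sdhb-, sdhc-, sdhd-, ucr-, atp-, mrpl- or mrps-, together with gas-1, isp-1, mev-1, cyc-1, cyc-2.1 and cyc-2.2. This gave 117 of 19973 genes, 47 for respiration and 70 for mitochondrial ribosomal proteins. The symbols leave out subunits that carry other names, such as those beginning ndua- or asb-, which are described separately near the end. Both samples belonged to 1 group, hermaphrodite young adults of strain OP537, collected 67 hours after starved L1 larvae had been synchronised. The strain carries the allele unc-119(tm4063) on III and the transgene wgIs537, from which MXL-1 is made with a C-terminal GFP-FLAG tag. The description in the labels says that the immunoprecipitation used an antibody against GFP, whereas the antibody field of the labels reads mxl-1. The labels number the 2 samples as biological replicates, and no untreated or other group allowed a comparison between conditions.

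MXL-1 is a worm relative of the mammalian protein Max, with a bHLH domain and a leucine zipper. It pairs with MDL-1, and dimers of this family recognise the E-box CACGTG. Loss of MDL-1 or MXL-1 is known to lengthen worm lifespan. The respiratory chain passes electrons from NADH (complex I) or succinate (complex II) through complex III and cytochrome c to oxygen at complex IV, and ATP synthase uses the resulting proton gradient. Complexes I, III and IV and ATP synthase combine subunits encoded in the nucleus with subunits made inside mitochondria. The mitochondrial ribosome translates the latter, and in the worm its protein components are nuclear gene products imported from the cytosol. In worms, mutations in gas-1, mev-1 and isp-1 alter lifespan or resistance to oxidative stress, and knockdown of mrps-5 lengthens life.

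Sequences at the summits on which the results turn are shown in ce11 coordinates, on the strand of the member gene, 101 bases each with the summit in the middle, read from RefSeq WBcel235. The first 3 belong to the thresholded list, the authors' most stringent list, and show how different these sites were. In nduf-9 and ucr-2.3 the capital marks the summit base, and in cox-6B the capitals mark the 2 copies of CACGTG.
nduf-9, III:3249160-3249260 (-): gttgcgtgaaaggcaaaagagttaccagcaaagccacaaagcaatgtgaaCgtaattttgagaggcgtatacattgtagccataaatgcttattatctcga
cox-6B, III:2768789-2768889 (+): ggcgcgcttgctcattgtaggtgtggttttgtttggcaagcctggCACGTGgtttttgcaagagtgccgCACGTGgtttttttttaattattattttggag
ucr-2.3, III:880066-880166 (+): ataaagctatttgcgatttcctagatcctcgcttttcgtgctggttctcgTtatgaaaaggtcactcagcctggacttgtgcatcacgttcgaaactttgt
The next 2 are weaker summits, from the pooled list only, that lay upstream of a subunit gene and were matched in both replicates, again with the summit base in capitals.
sdha-1, X:8546142-8546242 (-): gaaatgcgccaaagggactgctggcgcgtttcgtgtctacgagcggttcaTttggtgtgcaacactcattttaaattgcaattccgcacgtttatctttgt
ucr-2.1, X:12018107-12018207 (+): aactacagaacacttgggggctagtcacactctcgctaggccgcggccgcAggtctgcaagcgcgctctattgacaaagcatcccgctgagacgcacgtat
Neither of these 2 windows, nor those of nduf-9 and ucr-2.3, contains CACGTG.

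The values are the authors' peak lists, which held 20313 peaks for replicate 1, 21882 for replicate 2, 14200 for the pooled reads and 557 in the thresholded list, 550 of them nuclear. Signal is the authors' value for each peak and has no stated scale, so it was ranked only within a list, and rank 1 denotes the strongest peak. Replicate values are set side by side without a comparison of their size, and the replicate lists differ in length, so their ranks show only where a peak stood in each. The 557 thresholded peaks were the strongest entries of the pooled list and ended at a signal of 67.7, whereas the pooled list reached down to 25.6. The replicate and pooled lists are labelled as peaks plus background, so a weak entry need not be a binding site. A gene's promoter window covered 1000 bp before and 200 bp after any of its protein-coding transcript starts. A pooled summit was called matched where each replicate list held a summit within 100 bp. Read totals were not used here, so depth is unknown. The whole animal was sampled, so a site used in few cells cannot be told apart from a weak site used in many.

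Thresholded summits lay at 6 loci of members, in the promoter window or the gene body, and none of the 6 was within 500 bp upstream of a member's start. Promoter windows of 3 of 117 members (2.56%) held one, namely mrpl-23, nduf-9 and cox-6A, beside 1.06% of all nuclear genes. Gene bodies of another 3 members (2.56%) held one, namely cox-6B, cox-4 and ucr-2.3, beside 1.23% of all genes. Of the 6 loci, 5 belonged to respiratory genes and 1 to a mitoribosomal gene. These counts are small, and the promoter count moved with the settings. It was 0 with a window of 500 bp upstream, beside 0.691% of all genes, so 0 is near the background there. With a window of 2000 bp upstream to 500 bp downstream it was 7, beside 1.9%. Among the 557 strongest peaks of replicate 2 alone 6 members were counted, beside 1.1% of all genes. Among those of replicate 1 alone there were 2, beside 1.17%. The latter were nduf-9 and cox-6A, since the replicate 1 summit at mrpl-23 fell just outside its window.

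The strongest summit in any member's window was that of mrpl-23, which encodes a protein of the large mitoribosomal subunit. The peak (WBGene00020348, I:6212634-6213073) had a pooled signal of 162.9 at rank 43, with 77.6 in replicate 1 and 84.0 in replicate 2, rank 47 in each. The peak was near the top of both replicate lists. The replicate 1 summit lay 43 bp from the pooled one and fell outside the promoter window of mrpl-23. The gene is therefore not among the members counted with a promoter summit in replicate 1. The summit lay 969 bp upstream of mrpl-23, near the far edge of its window, in an intron of fars-1, a phenylalanyl-tRNA synthetase gene on the same strand. It was 30 bp from the snoRNA gene T08B2.13 (WBGene00044935), and no other protein-coding start was nearer than that of mrpl-23.

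The peak upstream of nduf-9, which encodes a complex I subunit, had a pooled signal of 141.6 at rank 67 (WBGene00021800, III:3248990-3249429). Replicate 1 gave 58.0 at rank 139 and replicate 2 gave 85.2 at rank 44. The replicate 2 summit lay 78 bp from the pooled one. The summit was 635 bp upstream of nduf-9, outside protein-coding genes and inside the microRNA gene cel-mir-4936 (WBGene00219264) on the opposite strand. It lay 129 bp beyond the end of Y53G8AL.4, on the strand of nduf-9, and one start of that gene was nearer, at 282 bp.

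The third promoter call was at cox-6A, which encodes a complex IV subunit. The peak (WBGene00006519, on III) had a pooled signal of 114.6 at rank 142, with 72.6 at rank 65 in replicate 1 and 49.4 at rank 271 in replicate 2. The replicate 2 summit lay 100 bp away, exactly at the limit for a match. The pooled summit, 911 bp upstream of cox-6A and 152 bp beyond the end of alh-1, an aldehyde dehydrogenase gene, lay inside an annotated snRNA gene on the opposite strand. Genes for snRNAs occur as near-identical copies, and reads from such copies cannot be assigned with certainty. A second pooled summit in the same window, 707 bp upstream of cox-6A, had a signal of 63.2 at rank 675.

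Thus 2 of the 3 promoter calls lay within 250 bp of a small RNA gene (tRNA, snoRNA, snRNA or rRNA), and the third lay inside a microRNA gene. Without summits near small RNA genes the count was 1, beside 0.551% of all genes, and without those near microRNA genes as well it was 0, beside 0.546%. Whether the signal belongs to the small RNA genes or to the members was not tested.

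The gene-body loci were weaker and differed in kind. At cox-6B, another complex IV subunit gene, the peak (WBGene00022170, III:2768619-2769058) had a pooled signal of 80.5 at rank 372, with 40.4 at rank 395 in replicate 1 and 38.3 at rank 517 in replicate 2. It stood below the other 3 loci already described in both replicate lists. The annotated gene spans 87197 bp because 1 transcript starts far upstream, and the summit fell in that intron, 160 bp upstream of the start of swsn-3, which encodes a subunit of a SWI/SNF chromatin remodelling complex. It lay in the promoter window of swsn-3 and not in that of cox-6B, and with the shortest protein-coding transcript of each gene it was no longer in cox-6B. It is the only one of the 6 with CACGTG within 100 bp of the summit, in the 2 copies shown above.

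At cox-4, also a complex IV subunit gene, the peak (WBGene00012354, I:13658008-13658447) had a pooled signal of 73.9 at rank 455, with 41.9 in replicate 1 and 39.7 in replicate 2. The summit lay in the 3'UTR, 57 bp from the end of cox-4 and 61 bp from the end of the convergent gene sac-2. At ucr-2.3, a gene for a core protein of complex III, the peak (WBGene00020757, III:879896-880335) had a pooled signal of 67.7 and was the weakest of the thresholded list at rank 557. Replicate 1 gave 32.4 at rank 760 and replicate 2 gave 38.4 at rank 514. Its summit lay in a coding exon, 256 bp downstream of the start, and also in the promoter window of T24C4.5, a gene on the opposite strand 382 bp away. Below the threshold, nuo-3, a complex I subunit gene, had a gene-body summit of 62.2 at rank 699.

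**Figure D1:**
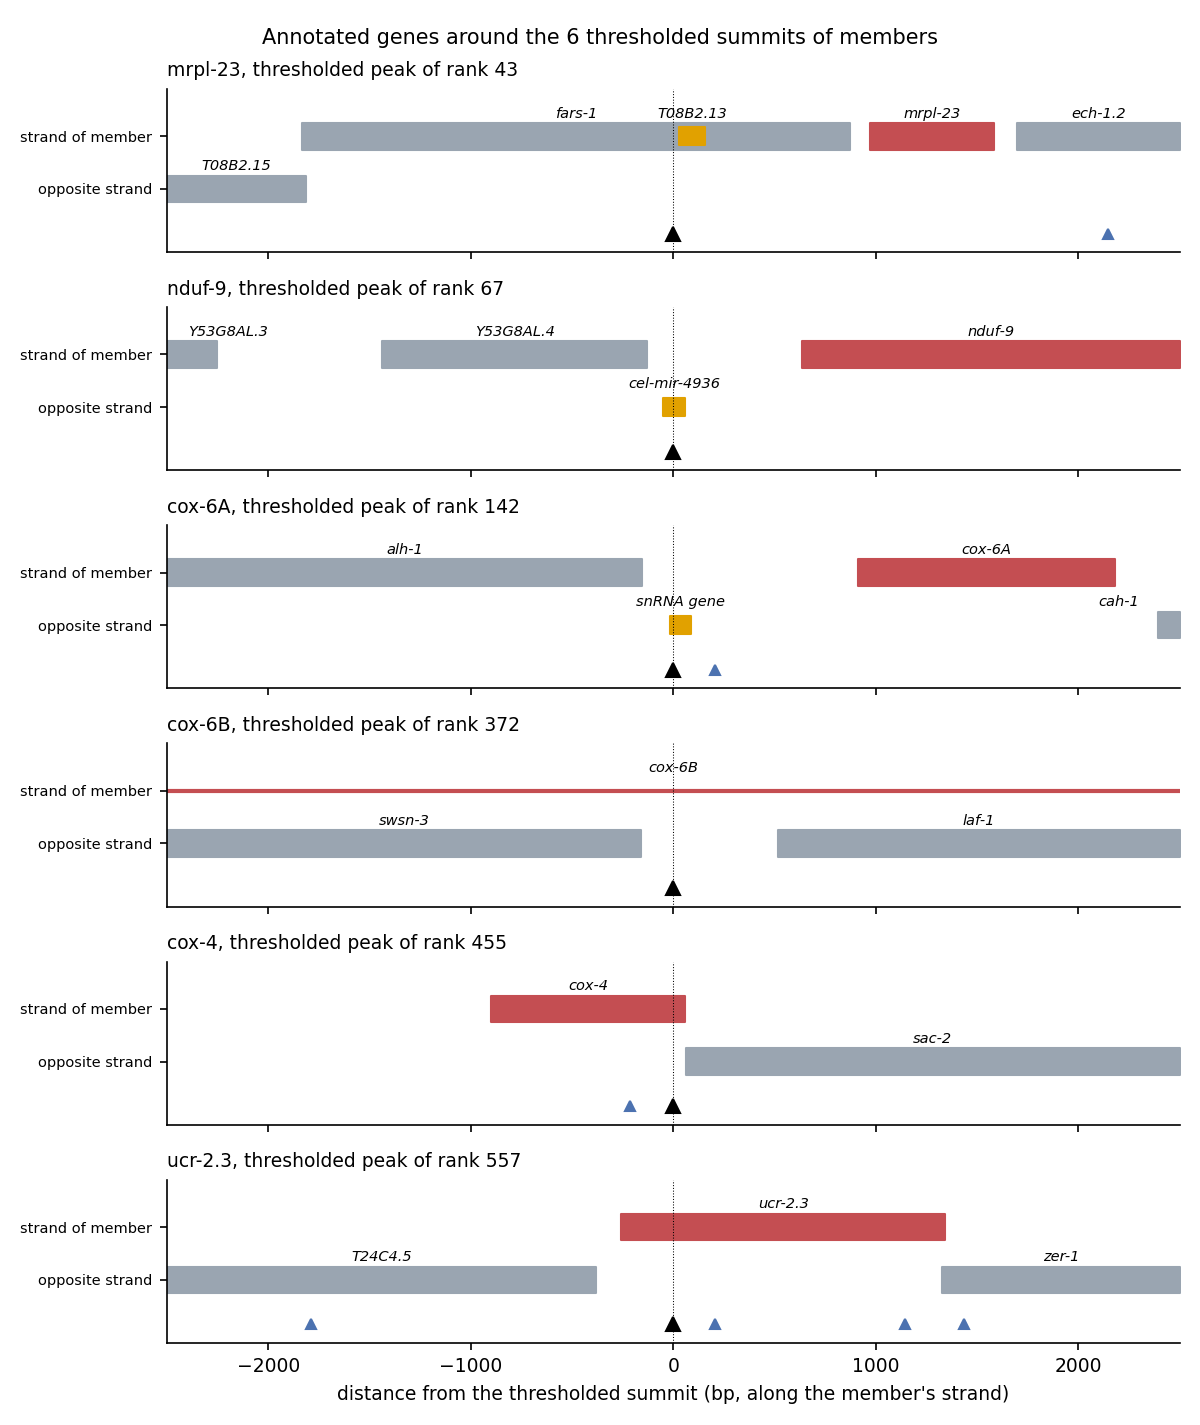
Maps of the 6 thresholded loci along the member's strand, in bp from the thresholded summit (black triangle), with other pooled summits as blue triangles, members in red, other protein-coding genes in grey and small RNA or microRNA genes in orange; the thin red line is the long intron of cox-6B. The summits at mrpl-23, nduf-9 and cox-6A lie at or beside orange genes and 635 to 969 bp upstream of the member, and that at cox-6B lies 160 bp from the start of swsn-3.

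In the pooled list, members had promoter summits more often than nuclear genes at large, and respiratory genes more often than mitoribosomal genes. Of the 117 members, 50 (42.7%) had a pooled promoter summit, beside 23% of all nuclear genes. The share was 26 of 47 (55.3%) for respiratory genes and 24 of 70 (34.3%) for mitoribosomal genes. A summit matched in both replicates was present for 21 members (17.9%), beside 8.60% of all genes, with 13 respiratory (27.7%) and 8 mitoribosomal genes (11.4%). In gene bodies the pooled share of members, 38 (32.5%), was close to the 30.9% of all genes. It combined a higher share of respiratory genes, 22 of 47 (46.8%), with a lower share of mitoribosomal genes, 16 of 70 (22.9%). For scale, 53 of 81 genes for cytosolic ribosomal proteins (65.4%) had a pooled promoter summit and 25 (30.9%) a matched one, so both shares were higher than those of the members. No test was made of these shares, and the members' gene lengths, expression and neighbours were not matched to those of other genes.

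The shares ran unevenly through the chain. All 5 ATP synthase genes had a pooled promoter summit, 4 of 5 complex II genes, 9 of 15 complex IV genes and 4 of 7 complex III genes. The complex I members stood at the background, with 3 of 13 (23.1%), a count without the complex I subunits that carry other symbols. Of the genes for cytochrome c, cyc-2.1 had one and cyc-2.2 had no summit in any list. The large mitoribosomal subunit had 15 of 41 (36.6%) and the small subunit 9 of 29 (31.0%). With matching in both replicates the ATP synthase count dropped to 1 of 5, whereas complex II kept 3 of 5 and complex III 3 of 7. These are small groups, in which 1 gene moves a share by many points.

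**Figure D2:**
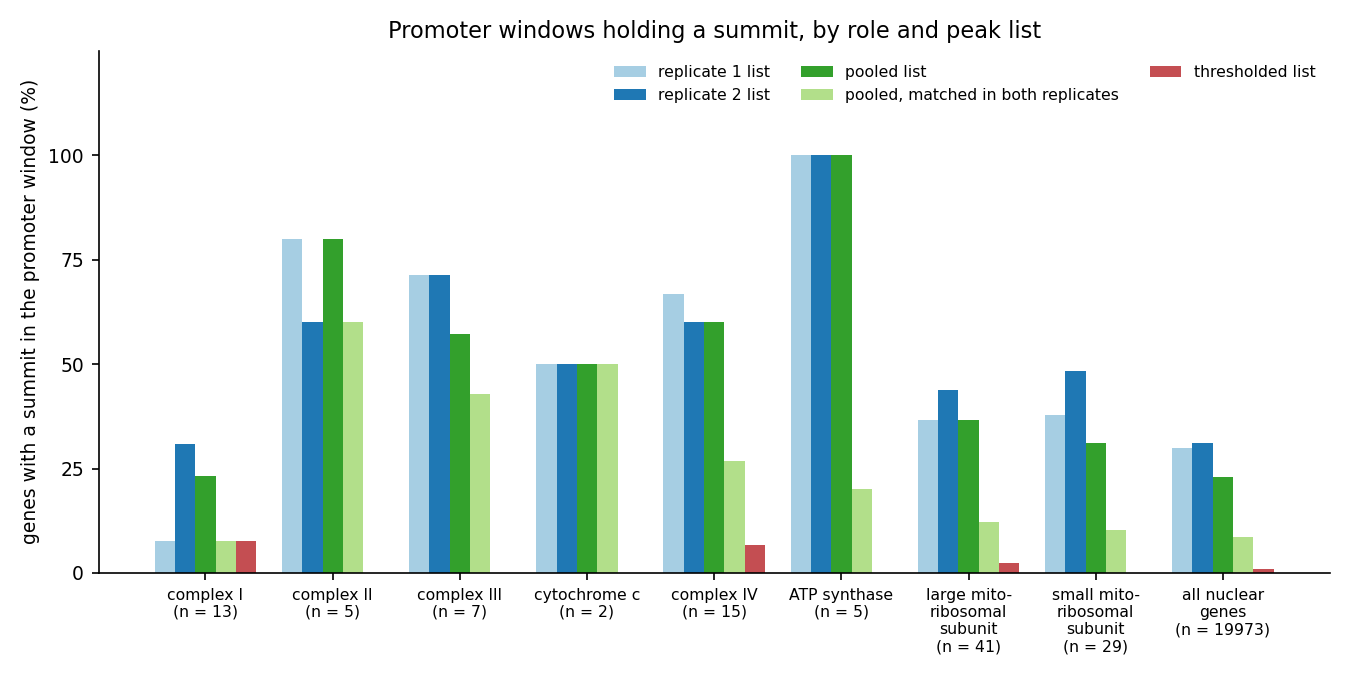
Percent of genes whose promoter window held a summit, by role group and by peak list, with all nuclear genes at the right; the number of genes is given under each group. The 5 ATP synthase genes reach 100% in both replicate lists and the pooled list but 1 of 5 once the same summit had to match in both replicates, and complex I (3 of 13 in the pooled list) is level with the 23% of all genes.

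The typical pooled promoter summit of a member stood above the median signal of the whole pooled list (31.7) but under the thresholded list's end of 67.7. Over the 50 members the signal had a median of 37.1 (quartiles 30.9 to 45.4), beside 33.2 (28.8 to 41.0) over the 4585 nuclear genes with such a summit, and the median rank was 3962.5 beside 6055. The median was 39.2 for respiratory and 34.7 for mitoribosomal genes. The authors' q value for the entry was at or under 0.05 for 6 of the 50 (12%), beside 9.95% of all genes with a pooled promoter summit. These 6 were mrpl-23, nduf-9, cox-6A, mrpl-50, cyc-2.1 and mev-1.

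Among the input ends of the chain, complex I members had little in promoter windows beyond nduf-9. Complex I subunits with other symbols were not members, and ndua-2 among them had 67.6 at rank 560 in the pooled list. The start of another gene was nearer to that ndua-2 summit. In gene bodies, nuo-3 had the 62.2 given above. The next promoter summit of a complex I member was that of nuo-1, which encodes the NADH-binding subunit. It had 39.5 at rank 3082 in the pooled list, no match in replicate 1 and 22.4 in replicate 2. It lay 328 bp upstream, with the start of rpl-36.A, a cytosolic ribosomal protein gene, nearer at 305 bp. The summit of nduf-7, 928 bp upstream, had 28.0 at rank 10836, again with a match only in replicate 2 (17.3). The windows of nuo-2, nuo-4, nuo-6 and nduf-6 and their gene bodies held no summit in any list. The gene gas-1, for a core complex I subunit, had none in the promoter lists or in the pooled gene body.

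Complex II, succinate dehydrogenase, had matched summits at 3 of its 5 genes. At mev-1, which encodes its cytochrome b subunit, the summit had 56.1 at rank 933, with 22 in replicate 1 and 28.2 in replicate 2. It lay in a coding exon of mev-1, 102 bp upstream of the nearest annotated start of a further mev-1 transcript, and also in the windows of ced-9 and jmjd-4, genes of the same neighbourhood. At sdha-1, for the flavoprotein subunit, the values were 43.8, 13.6 and 29.8 in the pooled, replicate 1 and replicate 2 lists, at replicate ranks of 17157 and 1216. That summit was 171 bp upstream, within 250 bp of the snoRNA gene D2021.6. At sdhd-1, for the other membrane anchor, the values were 36.3, 15.7 and 18.2, 6 bp downstream of the start. The second flavoprotein gene, sdha-2, had 31.1 in the pooled list and 22.3 in replicate 1 with no match in replicate 2, and sdhb-1, the iron-sulfur subunit gene, had no summit in its promoter window in any list.

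In complex III the strongest promoter summit was that of ucr-2.1, a core protein gene, with 50.2 at rank 1291, 15.6 in replicate 1 and 30.6 in replicate 2. It lay 272 bp upstream of ucr-2.1, but the start of nmat-1 was nearer at 114 bp. The summit of ucr-1, another core protein gene, had 40.8 at rank 2733, 14.8 in replicate 1 and 26.3 in replicate 2. It lay in an intron of ucr-1, 350 bp from the nearest ucr-1 start and 415 bp upstream of the one whose promoter window held it. At isp-1, which encodes the Rieske iron-sulfur protein, the strongest summit had 38.4 at rank 3426 and a match in replicate 2 alone (15.1). It lay in the 5'UTR of islo-1, whose start was 73 bp away. A second isp-1 promoter summit, 632 bp upstream, had 36.0 at rank 4424 and was matched in both replicates (18.4 and 16.2). The matched summits of ucr-2.1 and ucr-1 stood at ranks 11758 and 13780 in replicate 1 and 1091 and 1948 in replicate 2. In replicate 1 both thus lay far down the list, as at sdha-1. At cyc-2.1, which encodes cytochrome c, the summit of 57.4 at rank 873 lay in an intron 193 bp downstream of the start, with 29.1 in replicate 1 and no summit within 100 bp in replicate 2. Its window held 2 further pooled summits, both matched in both replicates. They had 55.5 at rank 957, with 23.1 and 44.7 in the replicates, and 44.4 at rank 1971, with 29.2 and 22.2.

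Complex IV had 9 genes with a pooled promoter summit. After cox-6A came cox-17, for a copper chaperone of its assembly, with 46.7 at rank 1647 and 21 and 21.2 in the replicates. The replicate ranks were 4186 and 4591, and the summit lay 615 bp upstream, in an intron of ubc-20. The assembly factor gene cox-16 had 38.9 at rank 3247, a match of 21.2 in replicate 2 alone, and a summit 17 bp from the start of syp-2, a synaptonemal complex gene. The other 6 had signals from 28.8 (cox-19) to 36.9 (cox-11), ranks 4018 to 9857. Besides the intronic site, cox-6B had a promoter summit of 33.2 at rank 6031, with 13.1 and 14.1 in the replicates, which lay in an intron of its long transcript.

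The 5 ATP synthase summits had similar signals and different positions. They were 51.3 at atp-4, 51.2 at atp-1, 45.9 at atp-2, 42.2 at atp-5 and 37.8 at atp-3, ranks 1211 to 3668. Of these, atp-1 and atp-2 encode the alpha and beta subunits of the catalytic head. Only atp-3 was matched in both replicates, with 21.9 at rank 3531 in replicate 1 and 13.2 at rank 20402 in replicate 2. The latter was near the bottom of its list of 21882 peaks. The pooled summit of atp-3 was 23 bp upstream of the start. The strongest promoter entries anywhere in the windows were 31.2, 29.1, 22.7, 15.6 and 13.9 in replicate 1 for atp-1, atp-2, atp-3, atp-4 and atp-5. In replicate 2 they were 24.8, 21.5, 20.3, 34.0 and 42.5 in the same order. By rank, these strongest entries of atp-4 and atp-5 stood at 11750 and 16194 in replicate 1 and at 773 and 378 in replicate 2. Those of atp-1, atp-2 and atp-3 stood between 867 and 3029 in replicate 1 and between 2453 and 5307 in replicate 2. For atp-3 they were other entries than the matched ones.

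Among mitoribosomal genes, mrpl-50 had the strongest promoter summit after mrpl-23, with 61.6 at rank 718 and replicate values of 30.9 at rank 898 and 31.3 at rank 1009. The summit lay 32 bp upstream of its start, in the 3'UTR of the preceding gene cct-2, which encodes a chaperonin subunit. The summit of mrpl-38 had 51.7 at rank 1178, 717 bp upstream, with a match of 27.1 in replicate 2 alone. The summit of mrpl-39 had 49.2 at rank 1375, 183 bp downstream of the start, with 30.4 and 13.9 in the replicates. In the small subunit the leading values were lower, 42.2 at mrps-12 (22.5 and 18.5), 37.0 at mrps-21 (16.4 and no match) and 35.9 at mrps-14 (23.4 and 16.2). The weakest pooled promoter entry of any member was that of mrpl-51, 25.9 at rank 13789. No summit in promoter or body of any list was found for 21 members (17.9%), beside 5994 of all 19973 nuclear genes (30%). They were 15 of 70 mitoribosomal genes (21.4%) and 6 of 47 respiratory genes (12.8%).

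**Figure D3:**
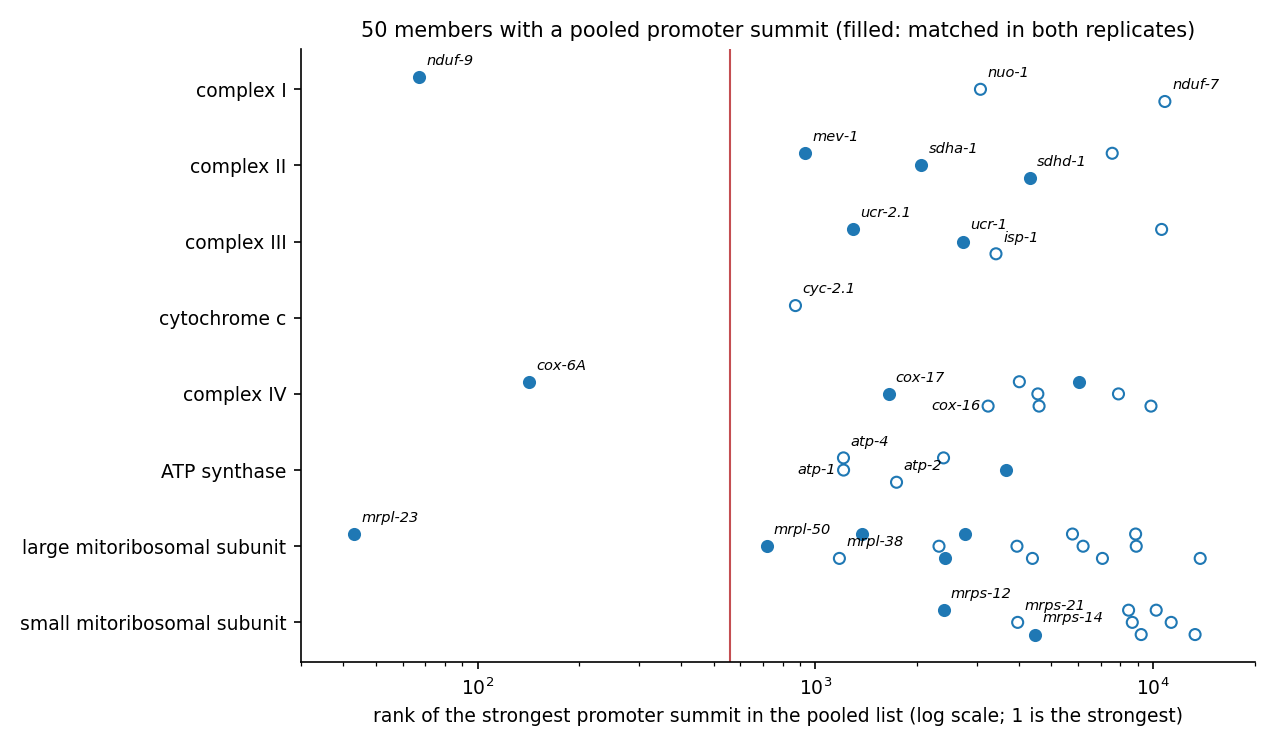
Rank in the pooled list (log scale, 1 strongest) of the strongest promoter summit of each of the 50 members that had one, by role, filled where the summit was matched in both replicates and open otherwise; the red line marks the end of the thresholded list at rank 557. The 3 members mrpl-23, nduf-9 and cox-6A lie left of the line, and the others begin with mrpl-50 at rank 718 and reach rank 13789.

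The replicates named overlapping but far from identical sets of members. Replicate 1 had a promoter summit at 52 members (44.4%), beside 29.8% of all genes, and replicate 2 at 59 (50.4%), beside 31.1%. Both lists had one at 34 members (29.1%), beside 15.7% of all genes. These 34 were 65.4% of the members in replicate 1 and 57.6% of those in replicate 2. Over all genes the overlap was also partial, with 3142 genes in both lists, of 5942 in replicate 1 and 6203 in replicate 2. A summit in either list was present at 77 members. The pooled list added 1 member that neither replicate had, and 39 members had a promoter summit in none of the 3 lists. The counts for either list and for none were not set beside all genes. The 4 members cox-7C, mrpl-42, mrpl-45 and mrps-16 had a summit in both replicate lists but none in the pooled list, with signals of 13.4 to 16.4. The strongest pooled summit was matched in both replicates for 17 of the 50 members (34.0%), close to the 35.3% of all genes. It was matched in replicate 1 alone for 15, in replicate 2 alone for 13 and in neither for 5, counts that were not set beside all genes. Over the 17, Spearman's rho between the replicate signals was 0.35, a description across genes, which are not replicates.

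**Figure D4:**
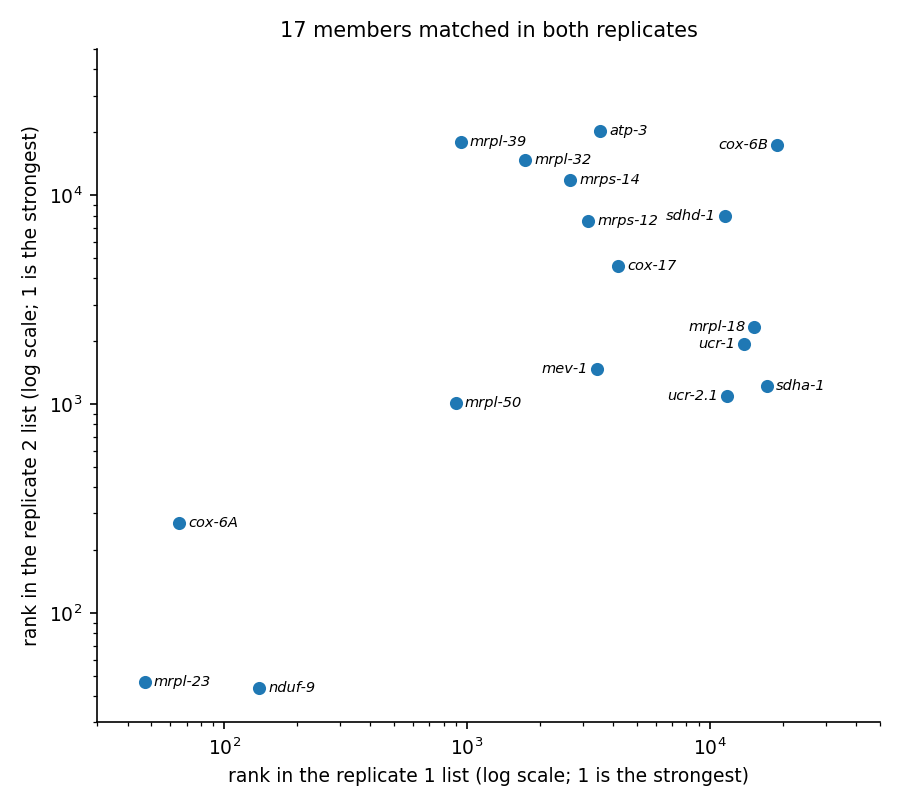
Rank in the replicate 1 list against rank in the replicate 2 list (log scales, 1 strongest) for the 17 members whose strongest pooled promoter summit was matched in both lists. The thresholded genes mrpl-23, nduf-9 and cox-6A lie apart at ranks 44 to 271, mrpl-50 follows at 898 and 1009, and others such as sdha-1 (17157 and 1216) and mrpl-39 (942 and 18067) stand far apart in the lists.

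Summits of members often lay in a window shared with another gene. The strongest pooled summit also lay in another gene's promoter window for 27 of the 50 members (54%), beside 26.5% of all genes with such a summit. The gene's own start was the nearest for 34 (68.0%), beside 81.2%. With each summit given to the gene with the nearest start alone, 35 members (beside 19.0% of all genes) kept a pooled promoter summit. The pairs already named, ucr-2.1 with nmat-1, isp-1 with islo-1 and nuo-1 with rpl-36.A, are of this kind, and so are atp-5 with lmtr-3 and mrps-15 with asg-1, the latter a gene for a further ATP synthase subunit. Which gene of such a pair a summit concerns cannot be told apart from these files.

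The median offset of the summit, from the start whose window held it, was -265 bp for members and -297 bp for all genes. Within 200 bp of the start lay 19 of 50 (38.0%), beside 40.5%, and downstream of it 9 (18%), beside 18.8%. The bin from 300 to 200 bp upstream held 12 members (24.0%), beside 9.86% of all genes. Its 12 members came from several roles, among them atp-4, ucr-2.1, cox-5A and mrpl-18, and the bin was singled out after its value was seen.

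**Figure D5:**
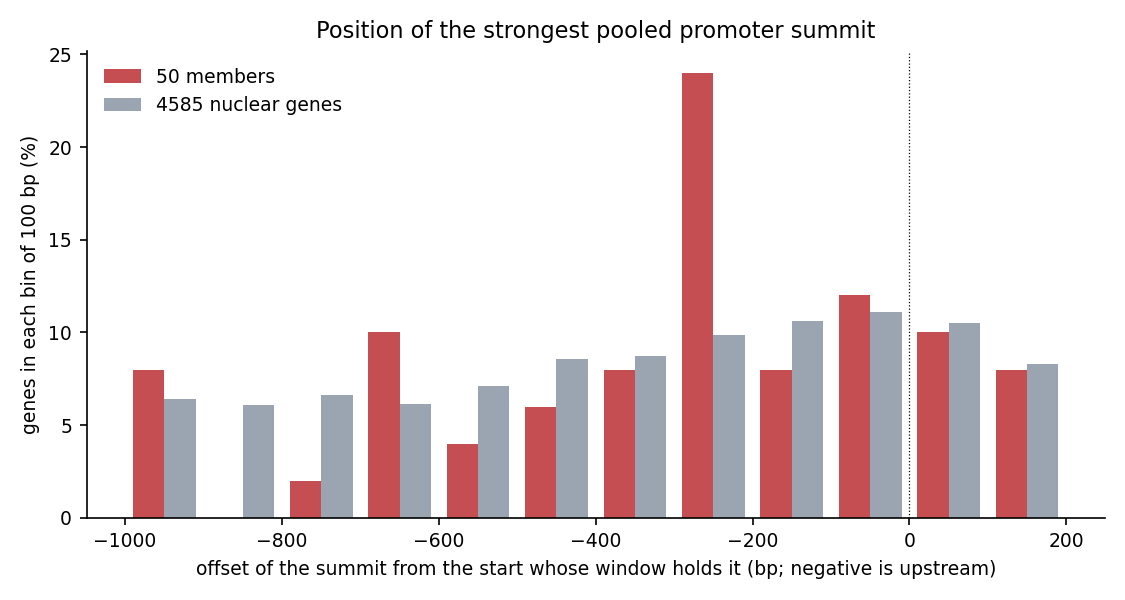
Percent of genes in each 100 bp bin of the offset between the strongest pooled promoter summit and the start whose window held it (bp, negative upstream), for the 50 members in red and all 4585 nuclear genes in grey. The bin from 300 to 200 bp upstream holds 12 members (24.0%) beside 9.86% of all genes, and the other bins hold 0 to 6 members each.

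Members also sat closer behind a neighbour. Worm genes are often arranged in operons, runs of genes on 1 strand transcribed together, and 45 of 117 members (38.5%) began within 500 bp of the end of a gene on the same strand, beside 20.2% of all genes. This spacing is a proxy, since operon annotation was not used here. Members in this position had a pooled promoter summit in 20 of 45 cases (44.4%) and members elsewhere in 30 of 72 (41.7%), shares that hardly differed. Over all genes the shares were 29.5% and 21.3%. The first gene of the run had one in 21 of the 45 cases (46.7%), beside 27.3% of the cases over all genes in this position. A first gene was counted once for each such gene behind it.

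By chromosome, members were concentrated on III, with 34 (29.1%) beside 13.2% of all genes, and on I, with 29 (24.8%) beside 14.4%. The X chromosome had 4 (3.42%) beside 13.7%. All 6 thresholded loci were on these first 2 chromosomes, 4 on III and 2 on I. Thresholded summits of all genes were not counted by chromosome, so these counts have no background. The share of members with a pooled promoter summit was 55.2% on I and 35.3% on III, beside 24.3% and 28.3% of all genes there.

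The E-box CACGTG reads the same on both strands. For none of the 50 members did the strongest pooled promoter summit have it within 100 bp, beside 4.60% of all genes with such a summit. In a group of this size a count of 0 is near that share. Within 250 bp of the summit 3 members had it (mrpl-38, mrps-30 and nduf-9), beside 9.77%. The letters themselves were about as frequent in members' promoters as elsewhere: 5 of 117 (4.27%) had CACGTG between 250 bp upstream and 50 bp downstream of the start, beside 5.85% of all genes. All 5 were mitoribosomal, and no respiratory gene had it there. Over the whole promoter window it was 18 of 117 (15.4%), beside 18.4%. Of these 18 members, 9 had a pooled promoter summit somewhere in the window, as did 50 of all 117 members. The 9 were 4 of 5 respiratory and 5 of 13 mitoribosomal genes with CACGTG in the window. Over all nuclear genes with CACGTG in the window, 936 of 3670 (25.5%) had such a summit, beside 23% of all nuclear genes.

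The sites of 3 of the 5 genes with CACGTG near the start are shown on the gene's strand with the E-box in capitals. They were chosen as CACGTG copies close to a member's start without a pooled summit at them. Distances to replicate summits were not measured.
mrpl-10, II:8278584-8278609 (-): ttagtaacttCACGTGaataatccca
mrpl-44, III:9089349-9089374 (-): aatgttccgtCACGTGgctcaaaatt
mrps-35, V:18981324-18981349 (+): ccgcctgacaCACGTGagcactcgaa
The site at mrpl-10 lay 82 bp upstream of the start, and the nearest pooled summit was 2660 bp away. At mrpl-44 the site spanned 5'UTR and coding sequence, and the nearest pooled summit was 2723 bp away. At mrps-35 it lay in a coding exon, 244 bp from a pooled summit. None of the 3 genes had a pooled promoter summit. In the replicate lists, mrpl-10 had a promoter entry of 18.4 at rank 6771 in replicate 1. The strongest promoter entry of mrps-35 was 20.5 at rank 5149 in replicate 2, and mrpl-44 had none in either replicate.

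The other 2 genes with CACGTG near the start were mrps-27, whose nearest pooled summit was 16821 bp away, and mrpl-34. At mrpl-34 a second promoter summit, 41 bp upstream of the start and 56 bp from the E-box, had a pooled signal of 26.7 at rank 12551. Its match in replicate 2 had 36.2 at rank 632, and replicate 1 held no match. Of all pooled promoter summits of members, this second summit was the one with CACGTG within 100 bp. It stood near the bottom of the pooled list but much higher in the replicate 2 list.

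Other nuclear genes of mitochondria, from lists that hold no member, showed no thresholded promoter or gene-body summit in any of 6 lists, 84 genes in all. Beside the 2.06% of all nuclear genes with a thresholded summit in either place, and the 6 members (5.13%), a count of 0 in lists of this size is near the background. The highest pooled share was in the tricarboxylic acid cycle and pyruvate dehydrogenase, which feed the chain with NADH and succinate, at 13 of 18 genes (72.2%, 4 matched in both replicates). Its leading genes were fum-1, fumarase, with 65.8 at rank 604 (34.7 in replicate 1, no match in replicate 2), and cts-1, citrate synthase, with 61.1 at rank 732 (56.9 and no match). The fum-1 summit had CACGTG within 100 bp. Import, chaperone and protease genes had 12 of 22 (54.5%, 5 matched), led by the prohibitin gene phb-2 with 63.9 (41.5 and 23.7) and the chaperonin gene hsp-60 with 60.8 (34.5 and 22.9). For hsp-60 the start of another gene was nearer to the summit. Coenzyme Q synthesis had 4 of 8 (2 matched). There the leading gene, coq-3, took its 62.2 (32.1 and 22.1) from the summit in the 5'UTR of nuo-3 named above. Its second was coq-4, with 40.4 (14.0 and 28.8).

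Genes for mitochondrial DNA upkeep and expression had 2 of 9 (22.2%, none matched), mtss-1 with 31.4 and gfm-1 with 26.3, which is close to the 23% of all genes. Among 4 regulators of mitochondrial stress responses, atfs-1, the transcription factor of the mitochondrial unfolded protein response, had 38.7 (13.2 and 25.1) and ubl-5 had 36.1 (17.8 and 19.4). Subunits of complex I and ATP synthase with other symbols had 11 of 23 (47.8%, 3 matched), near the members' 42.7%. Their leading genes were ndua-2, with 67.6 (34.3 and 31.5), and ndub-8, with 42.3 (no match and 16.6). For both, the start of another gene was nearer to the summit, and that of ndub-8 lay in an intron of cup-14. The background for the matched counts is the 8.60% given above.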

How the data were processed

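ChIP-seq of MXL-1 tagged with GFP was deposited as narrowPeak lists for 2 biological replicates, their pooled reads and a thresholded list, which per the deposited file descriptions was set by the irreproducible discovery rate. Column 7 is the authors' peak signal and column 9 the authors' −log10 q value (column order of the format); the former ranked peaks, and the latter, equal for all thresholded peaks, served once. The aligner and peak caller were not named in labels or headers and are thus not given in the sources used here. Lists on ce10 and the possible control named in the labels were not used here.

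Genes came from Ensembl release 115, sequence from RefSeq, both WBcel235, and positions are 1-based. The sequence at the cox-6A summit is not reported here. Summits were assigned to every promoter window or gene body that held them, with Python 3.11.15, numpy 2.4.6, pandas 2.3.3, scipy 1.17.1 and matplotlib 3.10.9. The assignment and matching were tested on simulated data. No hypothesis test was made, since both samples were 1 group. Named were members with a thresholded summit, the 3 strongest pooled promoter summits per role and the 2 strongest per pathway list, and other genes were named after their values were seen. Members and lists were chosen with earlier results of these data known. Other windows, matching distances, transcripts, small RNA genes and single replicates were tried as alternatives.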

Additional observations from a re-analysis of the deposited data

How the results depend on the processing

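The count of members with a thresholded promoter summit (3) was 0 with a window of 500 bp upstream to 200 bp downstream, beside 0.691% of all genes. It was 7 with 2000 bp upstream to 500 bp downstream, beside 1.9%. It was 1 without summits near small RNA genes (all genes 0.551%) and 0 without those near small RNA or microRNA genes (0.546%). The latter setting was chosen after seeing the data. From the strongest 557 peaks of a single replicate it was 2 for replicate 1 alone (all genes 1.17%) and 6 for replicate 2 alone (1.1%). For gene bodies (3) these counts were 3 (1.27%) and 4 (1.32%). No gene-body summit of members was among the stronger thresholded peaks, those above the median signal of the list (0, all genes 0.571%). The count matched in both replicates (21) was 33 with the longer window (all genes 14.2%) and 13 with matching within 50 bp (5.72%). The members with CACGTG near the strongest summit (0) numbered 3 within 250 bp (all genes 9.77%). The pooled promoter count (50) ranged from 35 (all genes 19.0%) to 68 (36.1%) over 9 alternatives, each within 1.5 times. The cause of these changes was not tested beyond the wider or narrower window itself. Depth is unknown, so a member without a summit is one not listed, and absence of binding cannot be read from it. No paired analysis was possible because both samples belong to 1 group.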

Other observations

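Mitochondrial DNA encodes further subunits of the same complexes. The thresholded list held 7 peaks on mitochondrial DNA, with signals from 290.3 to 3434.5 and none below rank 9, and 3 of the 12 protein genes there held a summit. Replicate 1 listed 6 such peaks (261.8 to 1670.1) and replicate 2 listed 8 (57.3 to 1753.2, the weakest at rank 164, below mrpl-23 and nduf-9 in that list). The strongest nuclear promoter summit of a member, that of mrpl-23, had 162.9. Mitochondrial DNA is present in many copies per cell, and the part of copy number in these signals was not tested.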
